A study of Mus musculus with 12 samples.

Results

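Nrf2, the transcription factor encoded by Nfe2l2, and 9 genes known as its targets (Hmox1, Nqo1, Gclc, Gclm, Txnrd1, Srxn1, Slc7a11, Gsr and Osgin1) were followed in RNA of stromal cells (stromal vascular fraction) from mouse fat, that is, the precursors, vessel cells and immune cells left once the fat cells have been taken out. The genes were taken by symbol from the count tables, which hold 24422 features, and all 10 were present and were among the 16713 genes that passed the filter on low counts. The 12 libraries form 4 groups of 3. SD mCherry (genotype p21+/mcherry) was fed a standard diet, and HFD mCherry, with the same genotype, a high-fat diet. HFD Tert (p21+/mcherry-Tert) and HFD TertCi (p21+/mcherry-TertCi) were both fed the high-fat diet and carry a cassette in which the p21 (Cdkn1a) promoter drives Tert, the catalytic subunit of telomerase, or its catalytically inactive form. The genotype labels write every group, the controls included, with a knock-in on 1 p21 allele. Sources disagree on the controls: their titles read P21het, and the design text of the series writes the high-fat diet control as p21+/- and names no mCherry there, so the mCherry allele of HFD mCherry rests on the genotype label alone. Expression of the Tert cassettes is limited to cells in which that promoter is active. Age, sex, fat depot and batch are not given in the labels, and nothing in them says whether a library is 1 animal or a pool, so the p-values measure the spread between these libraries.

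Nrf2 is held at a low level by Keap1, which presents it for degradation, and oxidants or electrophiles that modify Keap1 let it accumulate, pair with a small Maf protein and bind antioxidant response elements. Bach1 competes for the same elements and is released by heme, so that Hmox1, whose product breaks heme down to biliverdin, iron and carbon monoxide, answers to both factors. In adipose tissue, macrophages are known as a large source of Hmox1, and the pathway as a whole supplies glutathione, reduced thioredoxin and NADPH.

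The antioxidant response element is the sequence that ties these genes together, so the promoters of the members whose libraries did not overlap between groups in the comparisons below are shown where the RefSeq promoter table (GRCm38.p6) holds them. That table held 7 of the 10 genes, and Hmox1, Gclc and Gsr were not among them. Each line gives the 250 bases before a transcript start in RefSeq, on the gene's own strand, 5′ to 3′. Capitals mark a match to TGACNNNGC or TGAGNNNGC, 2 forms of the core of the element that differ in the fourth base, on either strand, and no 2 matches shown overlap.
Srxn1 (chr2:152105274-152105523, plus strand): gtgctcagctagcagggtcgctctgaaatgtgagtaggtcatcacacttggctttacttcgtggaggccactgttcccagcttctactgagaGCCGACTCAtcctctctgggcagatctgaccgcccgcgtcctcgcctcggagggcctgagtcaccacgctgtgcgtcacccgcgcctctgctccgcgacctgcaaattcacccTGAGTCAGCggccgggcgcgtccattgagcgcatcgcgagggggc
Osgin1 (chr8:119436897-119437146, plus strand): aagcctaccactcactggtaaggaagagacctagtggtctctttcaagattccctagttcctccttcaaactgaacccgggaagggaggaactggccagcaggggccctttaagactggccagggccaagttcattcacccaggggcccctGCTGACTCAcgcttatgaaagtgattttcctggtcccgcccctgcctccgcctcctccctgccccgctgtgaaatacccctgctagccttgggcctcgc
Slc7a11 (chr3:50443614-50443863, minus strand): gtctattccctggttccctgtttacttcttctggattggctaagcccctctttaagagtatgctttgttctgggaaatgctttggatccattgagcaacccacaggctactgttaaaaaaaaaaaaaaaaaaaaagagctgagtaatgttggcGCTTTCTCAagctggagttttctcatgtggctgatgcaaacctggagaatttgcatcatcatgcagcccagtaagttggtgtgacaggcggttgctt
Nqo1 (chr8:107403206-107403455, minus strand): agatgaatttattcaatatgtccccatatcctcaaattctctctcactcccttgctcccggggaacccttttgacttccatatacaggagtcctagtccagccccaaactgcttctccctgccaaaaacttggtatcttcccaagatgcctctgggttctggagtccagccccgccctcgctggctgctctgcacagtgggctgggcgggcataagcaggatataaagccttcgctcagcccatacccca
Srxn1 held 2 matches, TGAGTCAGC starting 45 bases before the RefSeq start and GCCGACTCA, a match on the other strand, starting 158 bases before it. Slc7a11 held GCTTTCTCA 97 bases before its RefSeq start. Osgin1 held GCTGACTCA 99 bases before the start that RefSeq gives, position 119437147. That start is not the outermost one: GENCODE M21 begins the gene at 119434124, 3023 bases upstream, with 6 of its 7 transcripts starting within 50 bases of the RefSeq start, so this window and its match lie inside the annotated gene. Nfe2l2 and Gclm held 1 match each, Txnrd1 held 1 match in 1 of its 3 windows, and none of these letters stood in the Nqo1 window. In all, 6 of the 9 windows of these 7 genes had a match to either form, beside 23.0% of all 32851 promoters in the table. A match describes the letters and is not a measured binding site.

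Each library held 16430330 to 19486965 counts, and the members' levels are given as CPM, counts scaled to a common total by the TMM-adjusted library size, where TMM is edgeR's correction for differences in composition between libraries. The knock-in labels were checked with the added feature mCherry_Tert, which had 0 counts in the 6 mCherry libraries and 33 to 86 counts in each HFD Tert or HFD TertCi library. Markers of the labelled tissue were present in every library, with adipose progenitor markers summing to 3777 CPM or more and macrophage markers to 1039 CPM or more. Adipocyte markers summed to 420 CPM or more, but most of that was Fabp4 and Pnpla2. Group means were only 1.18 to 4.43 CPM for Adipoq and 1.74 to 4.03 CPM for Plin1. The libraries also differed in a way that the groups do not explain. Crisp1, a gene of the epididymis, stood at 641 to 14780 CPM in 8 libraries and under 1 CPM in the other 4 (SD mCherry replicate 2, HFD mCherry replicate 20, HFD Tert replicate 27 and HFD TertCi replicate 31), 1 in each group. In bulk RNA, fewer cells of a type and less RNA per cell cannot be told apart.

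Levels were compared between genes only per kilobase of exon in GENCODE M21 (GRCm38). On that scale Hmox1 and Srxn1 were the most abundant members in all 4 groups. In HFD mCherry, Hmox1 stood at 443 ± 86.8 CPM per kilobase (SD, n = 3) and Srxn1, which encodes sulfiredoxin, the enzyme that repairs overoxidised peroxiredoxins, at 284 ± 23.9. Txnrd1, encoding cytosolic thioredoxin reductase, followed at 101.6 ± 36.1 and Nfe2l2 at 82.5 ± 25.8. Slc7a11, the cystine carrier of the xc- exchanger, was lowest at 2.99 ± 0.270 CPM per kilobase. Hmox1 lies on chromosome 8 at 75093621 to 75100589 with 1751 exonic bases, and Slc7a11 on chromosome 3 at 49892526 to 50443614 with 13922. Of the 10 genes, only Gclm shared exonic bases with other annotated genes (Gm17494 and Gm6061), neither of which is a feature of the count tables.

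**Figure D1:**
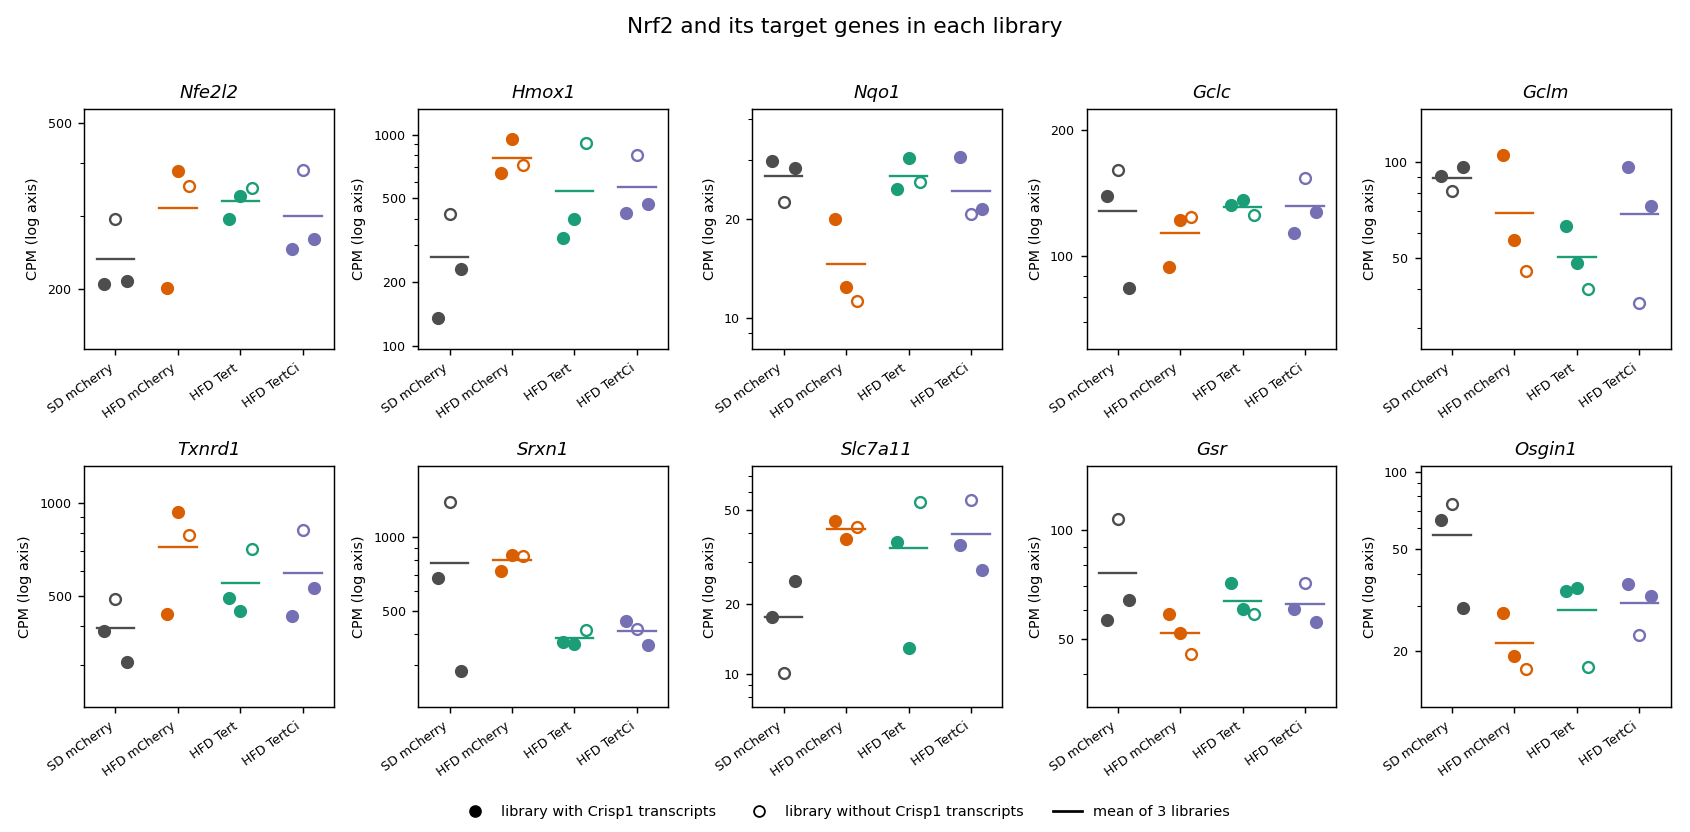
Level of each of the 10 genes in each library (CPM, log axis) by group. Filled points are the 8 libraries with Crisp1 transcripts, open points the 4 libraries without, and lines the mean of 3 libraries. Hmox1 and Slc7a11 were higher and Nqo1 and Osgin1 lower in every HFD mCherry library than in any SD mCherry library, and Srxn1 was lower in all 6 HFD Tert and HFD TertCi libraries than in any HFD mCherry library.

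The first comparison asked what the high-fat diet did in mCherry mice, and the targets of Nrf2 went different ways. Hmox1 was 2.95-fold higher on the high-fat diet, whereas Nqo1 stood at 0.540 and Osgin1 at 0.378 of the standard-diet level. No member passed edgeR's quasi-likelihood test after Benjamini-Hochberg adjustment over all genes (0 of 10 at an adjusted p under 0.05, against 0.0479% of all genes tested, 8 of 16713). At an unadjusted p under 0.05 the count was 6 of 10, 3 higher (Hmox1, Txnrd1 and Slc7a11) and 3 lower (Nqo1, Gsr and Osgin1), beside 24.1% of all genes (14.1% higher and 10% lower). DESeq2 called 3 of the 10, Hmox1, Nqo1 and Osgin1, beside 12.2% of all genes, and limma-voom called 0 of 10 and 0 of all genes, with 5 of 10 at an unadjusted p under 0.05 beside 22.3% of all genes. The median log2 fold change of the 10 genes was -0.07, and that of all genes tested -0.08.

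Nfe2l2 itself was measured at 206, 294 and 210 CPM in SD mCherry replicates 1, 2 and 3 and at 202, 384 and 354 CPM in HFD mCherry replicates 15, 17 and 20. The diet groups overlapped, since replicate 15 was below all 3 standard-diet libraries, and the log2 fold change was 0.40 ± 0.281 (SE, edgeR adjusted p = 0.384). Nrf2 activity is set largely by the stability of the protein, which these counts do not measure.

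Hmox1 was at 135, 422 and 231 CPM in the SD mCherry libraries and at 661, 949 and 719 CPM in the HFD mCherry libraries. All 3 high-fat diet libraries were above all 3 standard-diet libraries, a log2 fold change of 1.56 ± 0.492 (SE, edgeR unadjusted p = 0.00909, adjusted p = 0.110, DESeq2 adjusted p = 0.0262). Over the alternatives to this fit the log2 fold change ran from 1.25 to 2.13 and its adjusted p from 0.0223 to 0.347. Macrophage markers were also higher on the high-fat diet: all 15 of the list had a positive log2 fold change (median 2.26, 14 of 15 at an unadjusted p under 0.05), and their summed level was 1239 to 1437 CPM in SD mCherry and 2812 to 7031 CPM in HFD mCherry, with no marker at 0. Resident macrophage markers (7 of 9 positive, median 1.49) summed to 489, 738 and 335 CPM in SD mCherry replicates 1, 2 and 3. In HFD mCherry they summed to 598 to 1165 CPM, so these ranges overlapped. Lipid-associated macrophage markers (14 of 15 positive, median 2.67) summed to 3670 to 5100 CPM in SD mCherry and 6922 to 15775 CPM in HFD mCherry. Other cell types moved as well. Adipose progenitor markers (11 of 12 positive, median 1.35) summed to 3777 to 5462 CPM in SD mCherry and 8469 to 24580 CPM in HFD mCherry, and endothelial markers (11 of 12 positive, median 1.04) to 1100 to 1513 and 1992 to 3625 CPM. Adipocyte markers summed to 420 to 730 and 1029 to 1876 CPM, although 8 of the 12 had a negative log2 fold change (median -0.90). Fabp4 alone averaged 329 CPM of a mean sum of 577 in SD mCherry, and 1182 of 1362 in HFD mCherry. The rise of the adipocyte sum thus rests largely on that gene. Mesothelial markers were lower, with 10 of 11 negative (median -1.27) and sums of 1456 to 4731 CPM on the standard diet and 398 to 1383 CPM on the high-fat diet. Of the sums given so far, only that of resident macrophage markers overlapped between the diets. Mural markers were also mostly lower, with 8 of 12 negative (median -1.73), but their sums overlapped (3515 to 27229 and 2174 to 3910 CPM). Epididymis and epithelial markers went both ways (6 of 12 negative, median 0.30), and their sums overlapped (2817 to 60451 and 181 to 35422 CPM). In that list 2 of 12 genes did not overlap, both lower, beside 25.5% of all genes tested. They were Epcam (331 to 543 CPM in SD mCherry and 11.1 to 289 in HFD mCherry) and Cdh1 (193 to 381 and 5.65 to 184). The part of any of these cell types in the differences of Hmox1 and of the members below was not tested. Erythrocyte markers, which bear on heme carried into the sample, summed to 1622 to 8616 CPM on the standard diet and 3226 to 6758 CPM on the high-fat diet, and these ranges overlapped. Hba-a1 and Hba-a2 had identical values in each group (mean 1790 CPM each in SD mCherry). The same reads may thus enter the erythrocyte sum under both names.

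**Figure D2:**
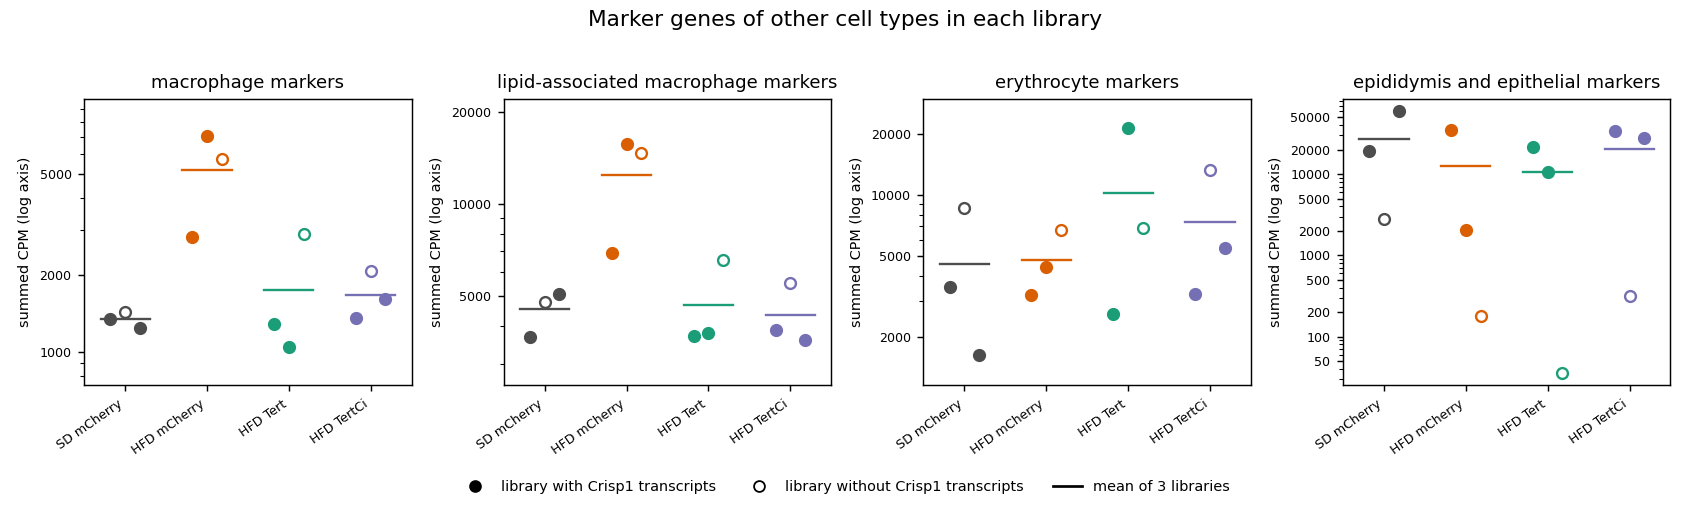
Summed level of 4 marker lists in each library (CPM, log axis) by group, with filled points for libraries with Crisp1 transcripts, open points for those without and lines for the mean of 3 libraries. Macrophage markers were at 2812 to 7031 CPM in HFD mCherry and at 1239 to 1437 CPM in SD mCherry, while the sums of erythrocyte markers and of epididymis and epithelial markers overlapped between all groups.

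Among the enzymes, Nqo1, a quinone reductase often used as a readout of Nrf2, was at 29.9, 22.5 and 28.5 CPM in SD mCherry and at 19.9, 12.4 and 11.3 CPM in HFD mCherry. Every high-fat diet library was below every standard-diet library, the opposite order to Hmox1, and the log2 fold change was -0.89 ± 0.265 (SE, edgeR unadjusted p = 0.00661, adjusted p = 0.0973, DESeq2 adjusted p = 0.0258). Osgin1, an oxidative stress-induced growth inhibitor, was at 65.0, 75.0 and 29.5 CPM on the standard diet and at 28.1, 19.1 and 16.9 CPM on the high-fat diet. Its groups did not overlap either, but SD mCherry replicate 3 lay close to HFD mCherry replicate 15 (log2 fold change -1.40 ± 0.393, SE, edgeR unadjusted p = 0.00458, adjusted p = 0.0891, DESeq2 adjusted p = 0.0117). Without HFD mCherry replicate 15, the library with the highest Nqo1 and Osgin1 of its group, both genes passed the edgeR test (adjusted p = 0.0210 and 0.0425), as did 12.2% of all genes.

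Slc7a11, which brings in the cystine used for glutathione, was at 17.5, 10.1 and 25 CPM in SD mCherry and at 45.0, 37.6 and 42.3 CPM in HFD mCherry. The high-fat diet libraries were tight and all above the standard-diet libraries (log2 fold change 1.25 ± 0.483, SE, edgeR unadjusted p = 0.0258, adjusted p = 0.163). Txnrd1 was at 385, 488 and 307 CPM and at 438, 936 and 786 CPM in the same groups. HFD mCherry replicate 15 fell within the standard-diet range, so the groups overlapped (log2 fold change 0.87 ± 0.351, SE, edgeR unadjusted p = 0.0310, adjusted p = 0.175). In all, the libraries of the diet groups did not overlap for 4 of the 10 genes, beside 25.5% of all genes tested.

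The glutathione genes among the 10 had smaller differences between the diets. Gsr, glutathione reductase, averaged 75.9 ± 27.2 CPM (SD, n = 3) on the standard diet and 52.1 ± 6.63 in HFD mCherry (log2 fold change -0.54 ± 0.242, SE, edgeR unadjusted p = 0.0474, adjusted p = 0.203). Gclc and Gclm, the catalytic and modifier subunits of glutamate-cysteine ligase, which makes the first bond of glutathione, had log2 fold changes of -0.17 ± 0.241 and -0.37 ± 0.381, each smaller than its own error (edgeR adjusted p = 0.669 and 0.556). Srxn1 was the most variable member on the standard diet, at 677, 1382 and 284 CPM, and was at 723, 845 and 834 CPM on the high-fat diet. Its 3 standard-diet libraries spanned the whole high-fat diet range, the log2 fold change was 0.04 ± 0.429 (SE, edgeR adjusted p = 0.963), and its sign was negative when libraries were scaled by total counts alone (-0.19).

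**Figure D3:**
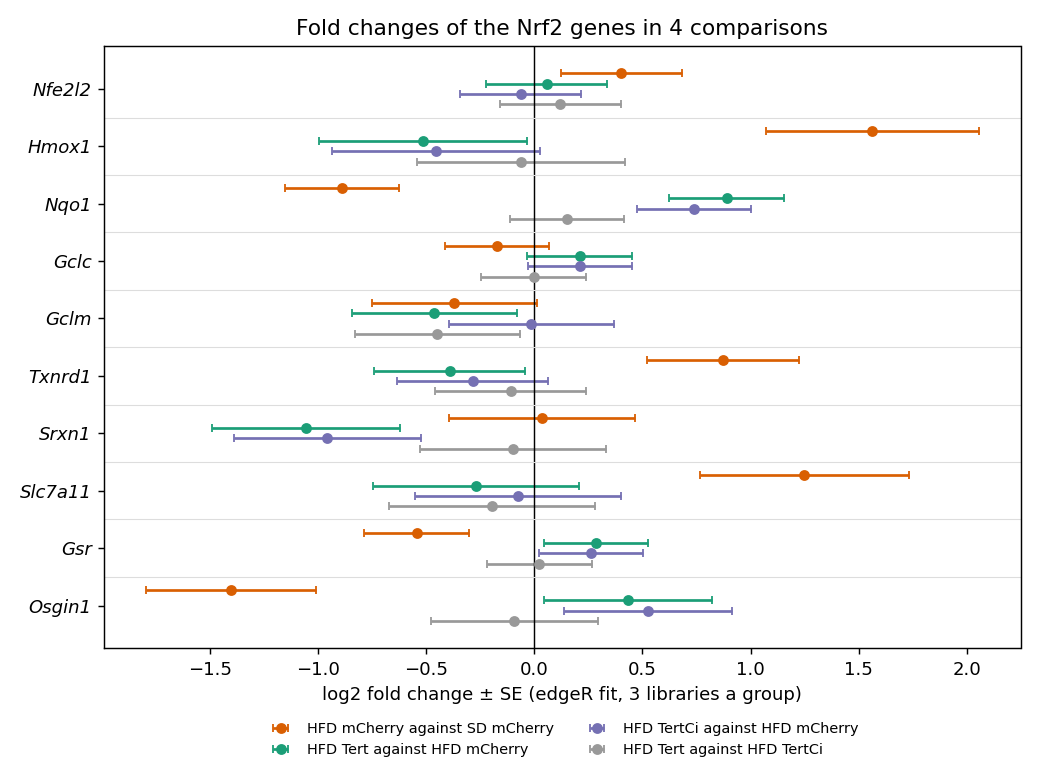
Log2 fold change ± SE of each of the 10 genes in 4 comparisons, from the edgeR fit with 3 libraries a group. In the diet comparison Hmox1 was at 1.56 and Osgin1 at -1.40, and in both comparisons of a knock-in with HFD mCherry Nqo1 lay above 0 and Srxn1 below 0. The comparisons of HFD mCherry with SD mCherry, HFD Tert and HFD TertCi share the 3 HFD mCherry libraries.

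The next comparisons asked what Tert or TertCi did on the high-fat diet. In both knock-in groups Nqo1 was higher and Srxn1 lower than in HFD mCherry in every library, while Nfe2l2 differed by less than its error. These comparisons share the HFD mCherry libraries with each other and with the diet comparison, so a deviation of those 3 libraries enters all of them with its sign turned, and the values are set side by side only. With edgeR 0 of 10 members passed the adjusted test for HFD Tert (0% of all genes) and 0 of 10 for HFD TertCi (0.012% of all genes). At an unadjusted p under 0.05 there were 2 of 10 in each, Nqo1 and Srxn1, beside 16.4% and 14.7% of all genes. DESeq2 called 0 of 10 in each, beside 4.89% and 3.71% of all genes.

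Markers of several cell types differed in the same comparisons. In HFD Tert the median log2 fold change was 2.15 for mesothelial markers (10 of 11 positive), 2.08 for mural markers (8 of 12), 1.36 for adipocyte markers (9 of 12) and 0.50 for endothelial markers (12 of 12). It was -0.70 for adipose progenitor markers (10 of 12 negative) and -1.75 for macrophage markers (15 of 15). In HFD TertCi the same lists had medians of 1.31, 1.66, 0.96, 0.54, -1.005 and -1.80, with the same counts by direction. The summed levels of mesothelial markers were 398 to 1383 CPM in HFD mCherry, 933 to 2897 in HFD Tert and 1284 to 1741 in HFD TertCi, and those of mural markers 2174 to 3910, 3603 to 26668 and 5114 to 16599. The ranges of both lists overlapped with HFD mCherry except for mural markers in HFD TertCi. Macrophage markers, at 2812 to 7031 CPM in HFD mCherry, overlapped in HFD Tert (1039 to 2904) but not in HFD TertCi (1350 to 2067). Lipid-associated macrophage markers, at 6922 to 15775 CPM in HFD mCherry, overlapped in neither (3700 to 6577 and 3596 to 5504). Resident macrophage markers, at 598 to 1165 CPM in HFD mCherry, overlapped in HFD Tert (604 to 1004) and in HFD TertCi (480 to 1149). Adipocyte sums, largely Fabp4, lay just above HFD mCherry (1029 to 1876) in HFD TertCi (1880 to 3628). Adipose progenitor and endothelial sums overlapped in both. The part of these cell types in the Nqo1 and Srxn1 differences was not tested.

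Nqo1 was at 24.6, 30.5 and 25.8 CPM in HFD Tert replicates 25, 26 and 27 and at 30.7, 20.7 and 21.4 CPM in HFD TertCi replicates 30, 31 and 33. All 6 libraries were above the highest HFD mCherry library (19.9 CPM), narrowly so for replicates 31 and 33, and the mean of HFD Tert, 26.9 ± 3.12 CPM (SD, n = 3), was the same to 3 digits as that of SD mCherry, 26.9 ± 3.95. The log2 fold change against HFD mCherry was 0.89 ± 0.265 in HFD Tert (SE, edgeR unadjusted p = 0.00660, adjusted p = 0.203) and 0.74 ± 0.264 in HFD TertCi (unadjusted p = 0.0180, adjusted p = 0.257). With both knock-in groups averaged it was 0.81 ± 0.236 (edgeR adjusted p = 0.107, DESeq2 adjusted p = 0.0259). In that average 0 of 10 members passed the edgeR test (0.168% of all genes), 2 of 10 had an unadjusted p under 0.05 (21% of all genes), and Nqo1 was the 1 member that DESeq2 called (8.5% of all genes).

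Srxn1 was at 372, 365 and 418 CPM in HFD Tert and at 453, 422 and 363 CPM in HFD TertCi, against 723 to 845 CPM in HFD mCherry. It was the member with the widest gap between the knock-in and control libraries and varied little within each of these 3 groups. The log2 fold change was -1.06 ± 0.434 in HFD Tert (SE, edgeR unadjusted p = 0.0337, adjusted p = 0.274) and -0.96 ± 0.433 in HFD TertCi (unadjusted p = 0.0499, adjusted p = 0.341). The average of both knock-in groups differed from HFD mCherry by -1.01 ± 0.361 (edgeR adjusted p = 0.159), and this passed the test when the SD mCherry libraries, among which Srxn1 varied most, were kept out of the fit (adjusted p = 0.0476, beside 0.421% of all genes).

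Hmox1 did not separate the knock-ins from the control. It was at 323, 399 and 909 CPM in HFD Tert and at 426, 802 and 471 CPM in HFD TertCi, so that 1 library of each group stood within the HFD mCherry range (661 to 949 CPM) and the other 2 below it. The log2 fold change was -0.51 ± 0.482 in HFD Tert (SE, edgeR adjusted p = 0.610) and -0.46 ± 0.482 in HFD TertCi (adjusted p = 0.684). Macrophage markers summed to 1039 to 2904 CPM in HFD Tert and 1350 to 2067 CPM in HFD TertCi, all 15 had a negative log2 fold change in each (medians -1.75 and -1.80), and their part was not tested. None of the remaining targets had an unadjusted p under 0.05 with edgeR. The log2 fold changes in HFD Tert and HFD TertCi were 0.43 ± 0.387 and 0.53 ± 0.387 for Osgin1, -0.46 ± 0.381 and -0.01 ± 0.380 for Gclm, -0.39 ± 0.349 and -0.28 ± 0.349 for Txnrd1, 0.29 ± 0.242 and 0.26 ± 0.242 for Gsr, and -0.27 ± 0.475 and -0.08 ± 0.475 for Slc7a11. Gclc was above HFD mCherry in all 3 HFD Tert libraries (125 to 136 CPM against 94.1 to 124 CPM), with a log2 fold change of 0.21 ± 0.241 (edgeR adjusted p = 0.686). Groups did not overlap for 3 of 10 members in HFD Tert and 2 of 10 in HFD TertCi, beside 21.1% and 21.5% of all genes.

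Active and inactive Tert were compared directly, which asks whether catalytic activity matters for these genes. No member passed the edgeR test (0 of 10, 0% of all genes), 0 of 10 had an unadjusted p under 0.05 (1.36% of all genes), and DESeq2 called 0 of 10 (0.0506% of all genes). The log2 difference, Tert against TertCi, was widest for Gclm at -0.45 ± 0.381 and Slc7a11 at -0.19 ± 0.475. It was 0.15 ± 0.262 for Nqo1, -0.10 ± 0.429 for Srxn1 and -0.06 ± 0.481 for Hmox1 (SE). The errors leave room for differences as large as several of the diet differences, so the groups are not shown to be alike.

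Over the 4 groups together, edgeR's F-test gave Osgin1 an unadjusted p of 0.0215 and Nqo1 one of 0.0238 (2 of 10 under 0.05, beside 20.2% of all genes), and 0 of 10 members passed after adjustment (0.012% of all genes). DESeq2's likelihood ratio test called Osgin1 (adjusted p = 0.0397), beside 12.8% of all genes. In order of mean level, Nqo1 went from HFD mCherry (14.5 CPM) through HFD TertCi (24.2) and SD mCherry (26.9) to HFD Tert (26.9), and only the step above HFD mCherry was free of overlap between neighbouring groups. Hmox1 went from SD mCherry (263 CPM) through HFD Tert (544) and HFD TertCi (566) to HFD mCherry (776), with overlap at each step. For the other 8 genes, too, the libraries of neighbouring groups overlapped at each step.

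Some of the spread within groups went with the presence of Crisp1 transcripts. The library without Crisp1 had the highest Hmox1 of its group in SD mCherry (422 CPM), HFD Tert (909) and HFD TertCi (802), and in HFD mCherry it lay between the other 2 (719). Txnrd1 and Nfe2l2 had the same placing in all 4 groups, and Gclm was lowest in the library without Crisp1 in all 4 (81.4, 45.5, 40.0 and 36.1 CPM). Nqo1 was lowest there in SD mCherry (22.5 CPM), HFD mCherry (11.3) and HFD TertCi (20.7) but not in HFD Tert (25.8). Osgin1 was highest there in SD mCherry (75.0 CPM) and lowest in HFD mCherry (16.9), HFD Tert (17.2) and HFD TertCi (23.1). Mural marker sums were also lowest there in all 4 groups (3515, 2174, 3603 and 5114 CPM), and their part was not tested. Among the 8 libraries with Crisp1, Hmox1 was at 135 and 231 CPM in SD mCherry, 661 and 949 in HFD mCherry, 323 and 399 in HFD Tert, and 426 and 471 in HFD TertCi. On those 8 libraries alone the log2 fold change for diet was 2.13 (edgeR adjusted p = 0.144), with 2 libraries a group. With Crisp1 presence as a term of the model, a fit chosen after seeing the data, Hmox1 (1.74, adjusted p = 0.0223), Nqo1 (-0.90, adjusted p = 0.0427) and Osgin1 (-1.46, adjusted p = 0.0439) passed in the diet comparison, beside 9.02% of all genes.

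The wider pathway was described with 7 lists of regulators, heme and iron genes and redox enzymes. In none of the comparisons did a gene of these lists pass the adjusted edgeR test, so the counts below are of genes at an unadjusted p under 0.05, to be read for the diet against 14.1% of all genes higher and 10% lower. Among 22 regulators and partners of Nrf2, 3 were higher and 1 was lower in HFD mCherry (median log2 fold change 0.08). Bach1, the heme-sensitive repressor of Hmox1, averaged 191 ± 73.0 CPM (SD, n = 3) on the standard diet and 433 ± 172 in HFD mCherry (log2 fold change 1.18 ± 0.425, SE, edgeR unadjusted p = 0.0186, adjusted p = 0.143), the same direction as Hmox1 itself. It was the lowest of the list in both knock-in groups, at -0.97 ± 0.423 in HFD Tert and -0.96 ± 0.423 in HFD TertCi. Bach2 (1.45 ± 0.293) was highest of the list on the high-fat diet, but its exons overlap those of Bach2os, and the use of strand in counting is not given in the sources used here. Atf3 (-1.18 ± 0.393) was lowest. Keap1 was at 51.2 ± 5.59 CPM in SD mCherry and 38.3 ± 6.43 in HFD mCherry, without overlap (log2 fold change -0.42 ± 0.212, edgeR adjusted p = 0.245). Sqstm1, which draws Keap1 into autophagy, had a log2 fold change of 0.45 ± 0.272. The small Maf genes had 0.27 ± 0.279 (Mafg, whose exons overlap Sirt7) and 0.00 ± 0.260 (Maff, whose sign depends on the fit).

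**Figure D4:**
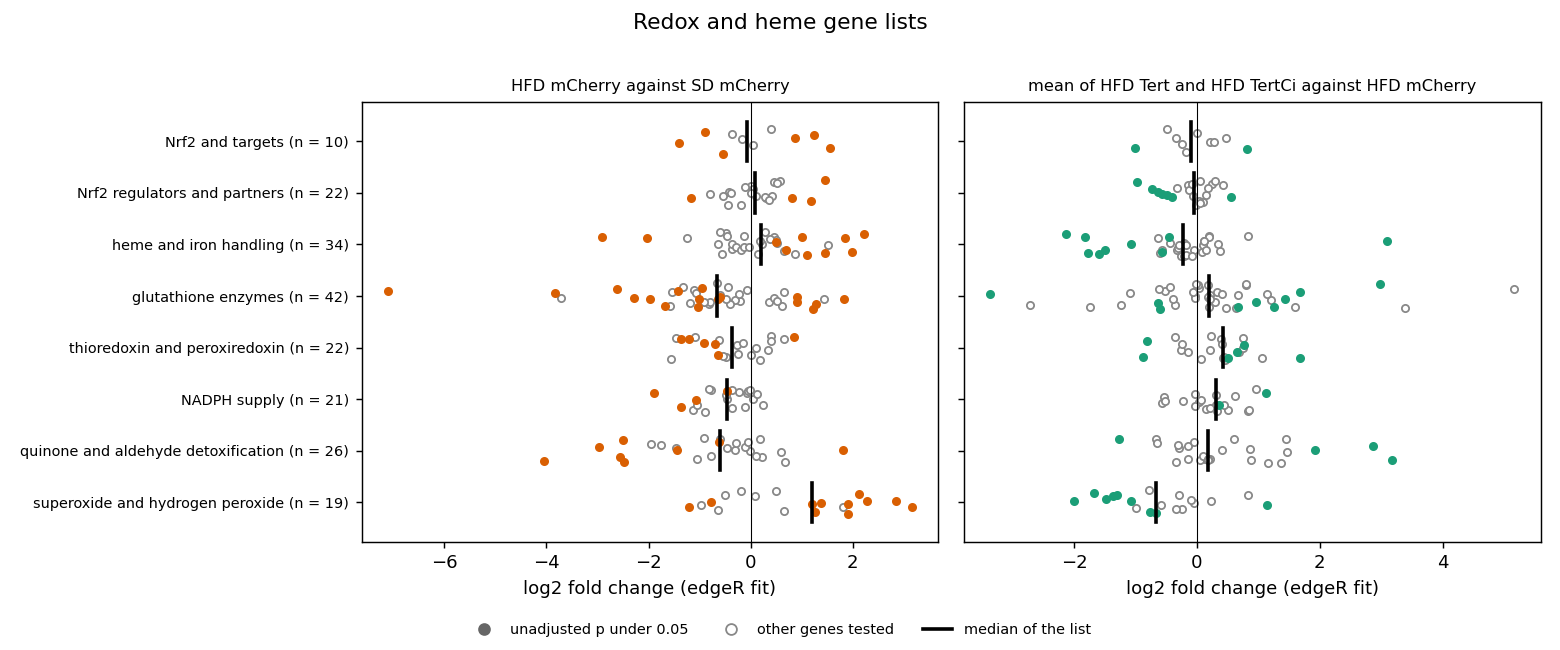
Log2 fold change of every gene tested in the 10 genes of the Nrf2 set and in 7 wider lists, for diet and for the mean of both knock-in groups against HFD mCherry. Filled points have an unadjusted p under 0.05 and bars are list medians. Superoxide and hydrogen peroxide genes had the highest median for diet (1.20) and glutathione enzymes the lowest (-0.65). Both panels share the HFD mCherry libraries.

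Of 34 heme and iron genes, 8 were higher and 2 were lower in HFD mCherry (median 0.20), a share above that of all genes (14.1%) for higher and below it (10%) for lower. Ftl1, the ferritin light chain, was at 927 ± 241 CPM in SD mCherry and 1872 ± 557 in HFD mCherry, without overlap (log2 fold change 1.01 ± 0.430, SE, edgeR unadjusted p = 0.0383, adjusted p = 0.187), and the ferritin heavy chain Fth1 had 0.47 ± 0.372. Both ferritins have near-identical pseudogenes, so their counts are uncertain. Slc11a1, a metal transporter of the phagosome, was highest of the list (2.22 ± 0.484, adjusted p = 0.0671), and Cd163, the macrophage receptor for hemoglobin bound to haptoglobin, had 1.51 ± 0.744. Slc40a1, the iron exporter ferroportin, went the other way, at 16.9 ± 12.8 CPM in SD mCherry and 4.12 ± 2.52 in HFD mCherry (log2 fold change -2.04 ± 0.760, edgeR adjusted p = 0.152). Blvrb, a biliverdin reductase downstream of Hmox1, had 0.29 ± 0.272. Abcg2 was lowest of the list (-2.92 ± 1.22), with an SD (494 CPM) above its mean (423 CPM) in SD mCherry. In the knock-in groups Steap3, a ferrireductase, was lowest of the list at -1.91 ± 0.574 and -2.33 ± 0.583.

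Of 42 enzymes that make or use glutathione, 5 were higher and 12 lower in HFD mCherry at an unadjusted p under 0.05, beside 14.1% and 10% of all genes. Only the share that was lower stood above that of all genes, and the median was -0.65 against -0.08 for all genes. Gsta4 was lowest at -3.83 ± 1.20, from 92.0 ± 99.0 CPM in SD mCherry to 6.45 ± 5.96 in HFD mCherry, and Ggt5 highest at 1.82 ± 0.631. The glutathione transferases are a family of near copies, so counts may be shared among them. Ggt1, Gstm5 and Gstm7, whose means were lower on the high-fat diet, also varied widely in SD mCherry (90.7 ± 77.2, 365 ± 286 and 301 ± 214 CPM). The part of epididymis and epithelial cells in this list was not tested. Gpx1 had -0.21 ± 0.336. Of 26 quinone and aldehyde detoxification genes, 1 was higher and 7 lower (median -0.61), with Ces2g highest (1.82 ± 0.494) and Aldh3a1 lowest (-4.05 ± 1.49). Of 21 genes of NADPH supply, 0 were higher and 4 lower (median -0.46). Aldh1l1 was lowest, at 7.76 ± 4.21 CPM in SD mCherry and 2.09 ± 0.479 in HFD mCherry (log2 fold change -2.25 to -1.455 over the alternatives to the fit). It averaged 1.73 CPM in HFD Tert and 1.85 CPM in HFD TertCi. Me1, malic enzyme, stood at 61.9 ± 32.3 CPM in SD mCherry and 24.0 ± 3.61 in HFD mCherry (log2 fold change -1.36 ± 0.382, edgeR adjusted p = 0.0891) and at 66.3 ± 21.3 CPM in HFD Tert, while G6pdx had 0.04 ± 0.454. Of 22 thioredoxin and peroxiredoxin genes, 1 was higher (Txndc5, 0.84 ± 0.191) and 5 lower (the lowest being Msrb2, -1.36 ± 0.400), and Prdx1 and Txn1 had 0.18 ± 0.270 and 0.00 ± 0.295.

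Of 19 genes that make or remove superoxide and hydrogen peroxide, 9 were higher and 2 lower, with a median of 1.20. Beside 14.1% and 10% of all genes, the share that was higher stood above that of all genes and the share that was lower was near it. Cybb, the catalytic subunit of the phagocyte NADPH oxidase, was at 34.2 ± 5.81 CPM in SD mCherry and 306 ± 156 in HFD mCherry, with no overlap (log2 fold change 3.16 ± 0.751, SE, edgeR unadjusted p = 0.00159, adjusted p = 0.0727). Noxo1, an organizer of another NADPH oxidase, was lowest (-1.20 ± 0.310) and shares exonic bases with Tbl3. Sod2 and Cat, which encode mitochondrial superoxide dismutase and catalase, had 0.49 ± 0.302 and -0.19 ± 0.223. Cybb is also expressed by macrophages, whose markers had a median of 2.26 in the same comparison, and their part was not tested. In the mean of both knock-in groups Cybb was lowest of this list at -2.00 ± 0.576 (edgeR adjusted p = 0.105, DESeq2 adjusted p = 0.0194), and Sod1, the cytosolic superoxide dismutase, was highest at 1.14 ± 0.284 (edgeR adjusted p = 0.0843, DESeq2 adjusted p = 0.00641). Sod1 was at 57.4 ± 11.0 CPM in HFD mCherry and at 126 ± 33.2 (SD, n = 6) over the knock-in libraries, with no overlap.

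Against HFD mCherry the redox lists had medians of either sign in the mean of both knock-in groups: 0.21 for glutathione enzymes (6 of 42 higher and 3 lower at an unadjusted p under 0.05), 0.42 for thioredoxin and peroxiredoxin genes (4 of 22 and 2), 0.31 for NADPH supply (2 of 21 and 0), 0.18 for detoxification genes (3 of 26 and 1), -0.66 for superoxide and hydrogen peroxide genes (1 of 19 and 8), -0.23 for heme and iron genes (1 of 34 and 8) and -0.04 for regulators (1 of 22 and 6). All genes tested had a median of -0.05, with 7.56% higher and 13.4% lower, the shares against which these counts are to be read. Slc3a2, the partner of Slc7a11 in the cystine exchanger, was at 278 to 337 CPM in SD mCherry and 522 to 602 CPM in HFD mCherry, without overlap. It was lower than in HFD mCherry in every library of both knock-in groups. It stood at 315 to 390 CPM in HFD Tert (log2 fold change -0.69 ± 0.178, edgeR adjusted p = 0.187, DESeq2 adjusted p = 0.00591) and 354 to 387 CPM in HFD TertCi (-0.59 ± 0.178, edgeR adjusted p = 0.215, DESeq2 adjusted p = 0.0294). Slc7a11 itself had -0.27 ± 0.475 and -0.08 ± 0.475. Sesn2, a stress-induced protein tied to Nrf2 through Keap1, was at 40.1 ± 8.35 CPM in HFD mCherry and 19.1 ± 1.6 in HFD Tert, without overlap (log2 fold change -1.07 ± 0.375, edgeR adjusted p = 0.231), and at 24.8 ± 4.11 in HFD TertCi, also without overlap (-0.69 ± 0.373, adjusted p = 0.415). Of the stress regulators, Atf4 had a log2 fold change of 0.48 ± 0.269 for HFD Tert and 0.62 ± 0.269 for HFD TertCi. In HFD Tert the highest and lowest of the enzyme lists were Gsta4 (4.43 ± 1.23) and Ggt1 (-4.63 ± 1.87), Msrb1 (1.80 ± 0.767), Me1 (1.46 ± 0.383), and Aldh3a1 (4.10 ± 1.50) and Ces2g (-1.16 ± 0.485). In HFD TertCi they were Gsta3 (1.42 ± 0.534), Txn1 (0.74 ± 0.297) and Txndc5 (-0.84 ± 0.191), Tkt (0.53 ± 0.180), and Ptgr1 (3.12 ± 1.19) and Ces2g (-1.38 ± 0.488), with Abcg2 (3.52 ± 1.25) among the iron genes. Active and inactive Tert differed at an unadjusted p under 0.05 in Gsta4, Gstm7, Adh7 and Syvn1 among the named genes, each with an edgeR adjusted p of 1. Several of these enzymes (Gsta4, Ggt1, Gstm7, Aldh3a1, Ptgr1, Abcg2) had an SD near or above the mean in a group. Epididymis and epithelial markers ranged from 35.7 to 60451 CPM over the 12 libraries, and their part was not tested. G6pdx, Me1, Txndc5, Syvn1 and Adh7 share exonic bases with another counted gene.

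The genes whose level followed Hmox1 most closely over the 12 libraries, by Pearson's r of log2 CPM, were Nsf (0.94), Gpx7 (0.94), Cbfb (0.94), Degs2 (0.93) and Ftl1 (0.93). Gpx7 is a peroxidase of the endoplasmic reticulum and Ftl1 a ferritin subunit. For Nqo1 they were Rpap3 (0.94), Myzap (0.93), Aamdc (0.92), Ccdc61 (0.91) and Pnkd (0.91), with none of the other 9 members among them. These are the highest of all genes tested and are descriptions over 12 libraries that share groups, make-up and depth.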

How the data were processed

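Poly-T selected RNA was reverse transcribed with random hexamers and sequenced, per the labels' protocols. The authors deposited raw read counts per gene symbol, 1 table per library; the submitters' processing notes name Subread, SAMtools, featureCounts 1.6.4 and the build mm10, while annotation, filters and strand are not given in the sources used here. Each library's group is that of its label; the design text of the series writes the high-fat diet control as p21+/-, and the labels, which name mCherry, were followed. Genes kept by filterByExpr (16713) were fitted with edgeR 4.0.16 (R 4.3.3; TMM, robust quasi-likelihood) in 1 model of 12 libraries, 2-sided, with Benjamini-Hochberg adjustment over all genes and a threshold of 0.05. The SE is the log2 fold change divided by the root of the F statistic. DESeq2 1.42.0, limma-voom 3.58.1, other scalings, filters and covariates, and fits without each library were alternatives. Of these, only DESeq2 and limma-voom were checked on simulated data, with the main test and in the diet comparison. Named wider genes were 17 set genes in the diet comparison and, per list and comparison, the highest and lowest log2 fold change among genes with an unadjusted p under 0.05 and a mean of at least 1 CPM. The members and lists were chosen with earlier results of these data known. Counts give precision only against counting error; the spread between libraries was larger (common biological coefficient of variation 0.536).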

Additional observations from a re-analysis of the deposited data

How the results depend on the processing

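No paired analysis was possible because no replicate number occurs in more than 1 group. The number of the 10 genes past the threshold, 0 in each comparison with edgeR, depended on the test and the covariate. For diet it was 3 with DESeq2 (Hmox1, Nqo1 and Osgin1), 4 with the epididymis and epithelial marker level as a covariate (those and Txnrd1, beside 9.44% of all genes) and 3 with Crisp1 presence as a term, chosen after seeing the data. It ran from 0 to 2 when 1 library was left out, the 2 being Nqo1 and Osgin1 without HFD mCherry replicate 15. For HFD Tert against HFD mCherry it was 1 (Nqo1) with the marker covariate, beside 6.82% of all genes. For the mean of both knock-in groups it was 1 with DESeq2 (Nqo1), 1 with the covariate (Nqo1, beside 10.6%) and 1 with only the groups compared (Srxn1, beside 0.421%), and from 0 to 1 without 1 library (Srxn1 without SD mCherry replicate 3, beside 2.82%; Nqo1 without HFD mCherry replicate 15, beside 4.04%). Over the 4 groups it was 1 with DESeq2 (Osgin1), 1 with the covariate (Nqo1, beside 7.22%) and from 0 to 1 without 1 library (Srxn1 without SD mCherry replicate 3, beside 3%). The other alternatives gave 0, and the causes were not tested. All 12 fits without 1 library were run; with 2 libraries left in a group, the spread is pooled over the groups. Scaling by total counts alone moved the median of all genes for diet from -0.08 to -0.27.

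Signs turned only for log2 fold changes near 0, with an adjusted p above 0.05 in each fit. For diet, Maff was -0.023 with DESeq2, -0.022 with limma-voom, -0.022 with RLE factors, -0.23 by total counts, -0.0086 with the stricter filter and -0.13 with the marker covariate. Txn1 was 0.019 with limma-voom, 0.0024 with no filter and 0.011 with only the groups compared. G6pdx was -0.031 with limma-voom, -0.12 by total counts and -0.020 with the Crisp1 term, and by total counts Srxn1 was -0.19 and Prdx1 -0.0094. Nfe2l2 was -0.0040 in HFD Tert with the marker covariate, and in HFD TertCi 0.062 by total counts and 0.022 with only the groups compared. For the mean of both knock-in groups Nfe2l2 was 0.012 with DESeq2, 0.037 with limma-voom, 0.012 with RLE factors and 0.12 by total counts. Gclm in HFD TertCi was 0.067 by total counts, 0.057 with only the groups compared and 0.059 on the 8 libraries with Crisp1. For Tert against TertCi, Gclc was 0.0051 with limma-voom, 0.014 with the Crisp1 term and 0.16 on the 8 libraries, and Osgin1 0.0065 on the 8 libraries.

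Without 1 library, the ranges that crossed 0 were, for diet, -0.36 to 0.74 for Srxn1, -0.12 to 0.19 for Maff, -0.022 to 0.44 for Prdx1, -0.40 to 0.023 for Gclc, -0.41 to 0.052 for Gpx1, -0.35 to 0.22 for G6pdx and -0.21 to 0.28 for Txn1. In HFD Tert they were -0.18 to 0.23 for Nfe2l2 and -0.75 to 0.12 for Slc7a11. In HFD TertCi they were -0.34 to 0.42 for Gclm, -0.30 to 0.11 for Nfe2l2 and -0.39 to 0.12 for Slc7a11. For Tert against TertCi they were -0.65 to 0.28 for Hmox1, -0.070 to 0.13 for Gsr, -0.33 to 0.19 for Txnrd1, -0.68 to 0.19 for Slc7a11, -0.10 to 0.12 for Gclc and -0.26 to 0.17 for Osgin1. For the mean of both knock-in groups they were -0.47 to 0.20 for Gclm, -0.24 to 0.17 for Nfe2l2 and -0.41 to 0.021 for Slc7a11.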
